A study of Mus musculus with 4 samples.

Results

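Of the 10 genes described here, some store iron (*Fth1*, *Ftl1*), take it up (*Tfrc*, *Slc11a2*) or export it (*Slc40a1*, *Heph*). Others set its export by hormone (*Hamp*, listed with its relative *Hamp2*) or sense it in the cytosol (*Ireb2*, *Aco1*). All 10 were chosen by name for these roles, among the 46095 gene symbols with read counts in bulk RNA sequencing of mouse stomach. Samples came from 12-week-old mice of the C57BL/6 strain, with 2 WT and 2 *Atp4b-cre; Myc OE* samples, the latter called MYC-KI in the labels. *Atp4b-cre; Myc OE* mice are *Atp4b-cre; Myc fl/+*, so that Cre made from the promoter of *Atp4b*, a proton pump subunit gene of parietal cells, switches on overexpression of human c-Myc in the parietal cell lineage, whereas the tissue sequenced was the stomach with all its cell types. The WT mice were *Myc fl/fl* littermates, which carry the floxed allele without Cre, so the groups differ in Cre and also in the number of floxed alleles. The labels do not say whether a sample is 1 mouse or a pool, and the p-values measure only the spread between these samples. The series describes triplicates, and 2 samples a genotype were analysed here.

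Ferritin, a shell built from heavy (*Fth1*) and light (*Ftl1*) chains, holds iron in a safe form inside cells. The transferrin receptor, encoded by *Tfrc*, brings in iron bound to plasma transferrin, DMT1 (*Slc11a2*) carries ferrous iron across membranes, and ferroportin (*Slc40a1*) is the only known iron exporter of animal cells, helped in the intestine by the oxidase hephaestin (*Heph*). Hepcidin (*Hamp*), a peptide hormone made mainly by the liver and also reported in parietal cells of the stomach, binds ferroportin and has it degraded. Mice have a related gene, *Hamp2*, and whether its product acts on ferroportin was not tested here. When iron is scarce, the iron regulatory proteins IRP1 (*Aco1*) and IRP2 (*Ireb2*) bind a short RNA hairpin, the iron-responsive element, which blocks translation when it lies in a 5′ UTR and protects the mRNA from decay when it lies in the 3′ UTR of *Tfrc*.

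These hairpins are shown because they are the sequence that joins storage, uptake and export to the iron regulatory proteins. The annotation GENCODE M21 of GRCm38 (mm10) was searched on the transcript strand for runs of 27 bases in which the loop CAGTGN is closed by 5 of 5 upper stem pairs and at least 4 of 5 lower stem pairs across an unpaired C. In all, 17 of 21901 protein-coding genes (0.0776%) held such a run in a UTR, and 4 of the 10 members were among them. Each hairpin is written 5′ to 3′ as DNA letters with the 6 loop bases in capitals:
*Fth1*, 5′ UTR, chr19:9982733-9982759, plus strand: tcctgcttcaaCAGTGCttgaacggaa
*Ftl1*, 5′ UTR, chr7:45459780-45459806, minus strand: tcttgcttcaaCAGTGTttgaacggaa
*Slc40a1*, 5′ UTR, chr1:45925466-45925492, minus strand: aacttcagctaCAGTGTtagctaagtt
*Tfrc*, first in the 3′ UTR, chr16:32631220-32631246, plus strand: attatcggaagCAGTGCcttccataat
*Tfrc*, the second, chr16:32631599-32631625, plus strand: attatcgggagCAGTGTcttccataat
*Tfrc*, the third, chr16:32631664-32631690, plus strand: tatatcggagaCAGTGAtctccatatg
*Tfrc*, the fourth, chr16:32631711-32631737, plus strand: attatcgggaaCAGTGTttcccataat

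The ferritin hairpins differ at 2 of these 27 positions, C3T and C17T, counted from the 5′ end with the *Fth1* base first. *Tfrc* held 4 hairpins in its 3′ UTR, and the other members with a match held 1 each in the 5′ UTR. No run of this form was found in a UTR of *Slc11a2*, *Heph*, *Hamp*, *Hamp2*, *Ireb2* or *Aco1*, which says only that these letters are not there in this annotation. These matches are a description of the sequence and were not tested against the counts.

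In the table as deposited the names and the *Atp4b-cre; Myc OE* counts do not line up, and all values below rest on a re-assignment chosen after the data had been seen: the counts of both transgenic columns were given, in row order, to the names sorted by character code. Pearson's r of mean log2(count + 1) between the genotypes, across genes, which are not independent replicates, was 0.524 before and 0.985 after. Over the 30 rows on either side of each member, leaving the member out, r lay between 0.921 and 0.989 for all 10 members, and the highest r with the transgenic counts moved by up to 5 further rows was 0.454. Samples held 30260305 to 41463647 counts. Counts on the *Myc* row were 1062 and 759 for WT against 735 and 1091 for *Atp4b-cre; Myc OE* samples (log2 fold change −0.35, edgeR adjusted p = 0.163), and whether reads of the human transgene fall on this mouse gene's row was not tested, so the row is no check of the genotypes. WT replicate 2 had 17846 counts of *Xist* and 5 of the Y-linked gene *Ddx3y*, against 85 to 201 and 1861 to 2623 in the other 3 samples, so that it also differs from them in the sex these genes mark. Stomach markers defined the tissue in WT, where the 11 parietal genes summed to 15482 and 15658 normalised CPM and the 8 chief cell genes to 85039 and 80648. In *Atp4b-cre; Myc OE* samples these sums were 1885 and 1772 for the parietal genes (10 of 11 lower) and 1212 and 1523 for the chief cell genes (6 of 8 lower). *Gif*, called lower, is counted in both lists. *Car2*, the parietal gene not called, made up 1398 and 1300 CPM of the transgenic parietal sums.

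Of the 10 members, *Tfrc* rose and *Hamp2* fell in *Atp4b-cre; Myc OE* stomach, 7 others did not pass the test, and *Hamp* had too few reads to be tested. A gene was called when edgeR's quasi-likelihood test gave an adjusted p-value under 0.05 over all genes and the change exceeded 1.5-fold. By this rule 10.7% of the 17643 genes tested were called, 5.65% higher and 5.08% lower. In the deposited order the same rule called 84.1% of genes and 9 of the members, all lower, and nothing is read from that count. The median log2 fold change of the 9 members tested was −0.20, against 0.01 for all genes tested. The members were described with normalised CPM, which are counts divided by the library size after TMM scaling and set to a common total.

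**Figure D1:**
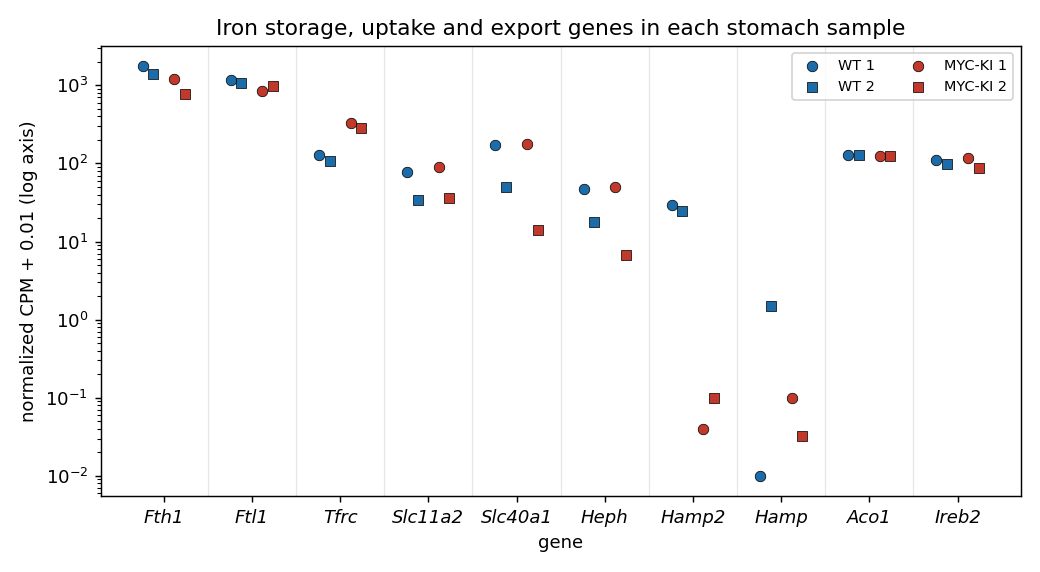
Normalised CPM plus 0.01 of the 10 members on a log axis, with 1 point per sample (circles replicate 1, squares replicate 2, blue WT, red MYC-KI). The red points of *Tfrc*, at 332 and 286 CPM, lie above both blue points, those of *Hamp2* lie near the bottom of the axis, and the points of *Slc11a2*, *Slc40a1* and *Heph* separate by shape rather than by colour.

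Among the storage genes, *Fth1* (chr19:9980598-9985098), the heavy chain that oxidises iron as it enters the shell, had 1749 and 1382 CPM in WT and 1213 and 775 CPM in *Atp4b-cre; Myc OE* samples. Both transgenic samples were below both WT samples, and the genotypes likewise did not overlap, in either direction, for 64.9% of all genes tested. Per library size without TMM scaling they overlapped, at 1623 and 1274 CPM in WT and 1312 and 835 CPM in transgenic samples. The means were 1565 ± 259 and 994 ± 310 CPM (SD, n = 2 each). The log2 fold change was −0.66 (standard error 0.26, edgeR adjusted p = 0.168), so *Fth1* was not called. DESeq2 gave the same fold change with an adjusted p of 0.0437 and called it lower, as a tool that called 18.0% of the 17921 genes to which it gave an adjusted p. Leaving out transgenic replicate 1 gave −1.01 with an edgeR adjusted p of 0.0452, and leaving out transgenic replicate 2 gave −0.37. In bulk tissue, fewer cells of a type and less RNA per cell cannot be told apart, here and for every gene below.

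The light chain *Ftl1* (chr7:45457944-45459884), which favours iron core formation, had 1173 and 1067 CPM in WT and 859 and 981 CPM in *Atp4b-cre; Myc OE* samples. Its genotypes did not overlap either, but the gap between the nearest samples was small, and per library size without TMM scaling they overlapped, at 1089 and 983 CPM in WT and 929 and 1057 CPM in transgenic samples. Without that scaling the log2 fold change was −0.061. With it the log2 fold change was −0.28 (standard error 0.12, edgeR adjusted p = 0.180), and *Ftl1* was not called. The ratio of *Fth1* to *Ftl1* counts was 1.49 and 1.30 in WT and 1.41 and 0.790 in the transgenic samples, so that replicate 2 of *Atp4b-cre; Myc OE* was the lowest in its balance of heavy to light chain. That sample also had the highest sum of 11 forestomach squamous genes, 4860 CPM against 1062 CPM in the other transgenic sample and 2911 and 1693 CPM in WT, and their part in the ferritin values was not tested. Adding the rows of ferritin pseudogenes (*Fth-ps2*, *Fth-ps3*, *Ftl1-ps1*, *Ftl1-ps2* and *Ftl2-ps*), which can share reads with the ferritin genes, gave −0.66 and −0.29 with adjusted p-values of 0.168 and 0.181. Only *Ftl1-ps1* held many of these reads, with 531 to 819 counts a sample.

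For uptake, *Tfrc* (chr16:32608920-32632794) was higher in *Atp4b-cre; Myc OE* stomach. Its counts were 4255 and 3014, or 127 and 108 CPM, in WT and 11266 and 12796 counts, or 332 and 286 CPM, in the transgenic samples. The lowest transgenic sample was above the highest WT sample by more than the spread within either genotype. The means of 117 ± 13.3 and 309 ± 32.3 CPM (SD, n = 2 each) differ by 2.63-fold, and the log2 fold change was 1.40 (standard error 0.13, edgeR adjusted p = 0.0193). Marker genes of dividing cells moved with it: 7 of 14 were called higher, all 14 had an unadjusted p under 0.05 and DESeq2 called 10 higher (*Ccnb1*, *Aurkb* and the *Mcm2* to *Mcm6* genes of the replicative helicase were the 7 of edgeR), and their summed level was 615 and 561 CPM in WT and 938 and 852 CPM in transgenic samples. The most abundant of the 14, *Mki67* and *Top2a*, had log2 fold changes of 0.40 and 0.56 and were not called, and the part of dividing cells in the *Tfrc* difference was not tested. Developing red cells also carry much transferrin receptor; of 6 erythroid genes tested, *Hba-a1* was called lower and none higher, 4 had an unadjusted p under 0.05, DESeq2 called 4 lower, and the 9 erythroid genes in the table summed to 240 and 74.2 CPM in WT and 27.1 and 30.3 CPM in the transgenic samples. For both lists the background is that 6024 of all 17643 genes tested had an unadjusted edgeR p under 0.05. The part of red cell precursors in the *Tfrc* difference was not tested. *Tfrc* was not called when either WT sample was left out (1.52 and 1.28, adjusted p = 0.196 and 0.232), fits in which no gene at all had an adjusted p under 0.05 while 3554 and 3410 had an unadjusted one.

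The 3 genes of intestinal iron transfer varied more between samples of a genotype than between genotypes. *Slc11a2* (chr15:100387898-100425072) had 77.7 and 33.98 CPM in WT and 90.9 and 36.1 CPM in *Atp4b-cre; Myc OE* samples. *Slc40a1* (chr1:45908068-45926523) had 171 and 50.6 CPM in WT and 178 and 14.2 CPM in the transgenic samples. *Heph* (chrX:96455359-96574485), the copper oxidase that works beside ferroportin in the gut, had 47.2 and 17.96 CPM in WT and 50.3 and 6.69 CPM in the transgenic samples. In each genotype 1 sample was high and the other low for all 3 genes, and the genotypes overlapped. The log2 fold changes were 0.18 (standard error 0.60), −0.21 (standard error 1.25) and −0.20 (standard error 1.03), with edgeR adjusted p-values of 0.858, 0.926 and 0.913. Errors of this size do not allow a change of several-fold in *Slc40a1* or *Heph* to be seen. Without transgenic replicate 1 *Slc40a1* was at −2.97 and *Heph* at −2.28 on the log2 scale, and without transgenic replicate 2 they were at 0.68 and 0.63.

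Replicate 1 exceeded replicate 2 by 3.38-fold in WT and 12.5-fold in *Atp4b-cre; Myc OE* stomach for *Slc40a1*, by 2.63- and 7.52-fold for *Heph* and by 2.29- and 2.52-fold for *Slc11a2*. Of all genes tested, 279 (1.58%) were over 2-fold higher in replicate 1 in both genotypes, a comparison chosen after these values were seen. Genes of the intestinal epithelium moved the same way. The 11 markers listed for enterocytes, among them the goblet cell mucin *Muc2*, summed to 1921 and 913 CPM in WT and to 1866 and 388 CPM in the transgenic samples. Of these, 9 of 11 were higher in replicate 1 in both genotypes, with *Cdx2* and *Slc10a2* as the exceptions, against 24.3% of all genes tested. Proliferation (10 of 14) and chief cell genes (5 of 8) also had high tallies. Surface mucous and smooth muscle genes had 0 of 7 each. *Alpi*, intestinal alkaline phosphatase, had 716 and 198 CPM in WT and 799 and 66.4 CPM in the transgenic samples, and *Vil1*, a protein of the brush border, 312 and 241 CPM against 333 and 193 CPM. By genotype 1 of the 11 was called, the bile acid transporter *Slc10a2*, which was higher in *Atp4b-cre; Myc OE* samples. The part of intestinal cells in the sample differences of the 3 transport genes was not tested.

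**Figure D2:**
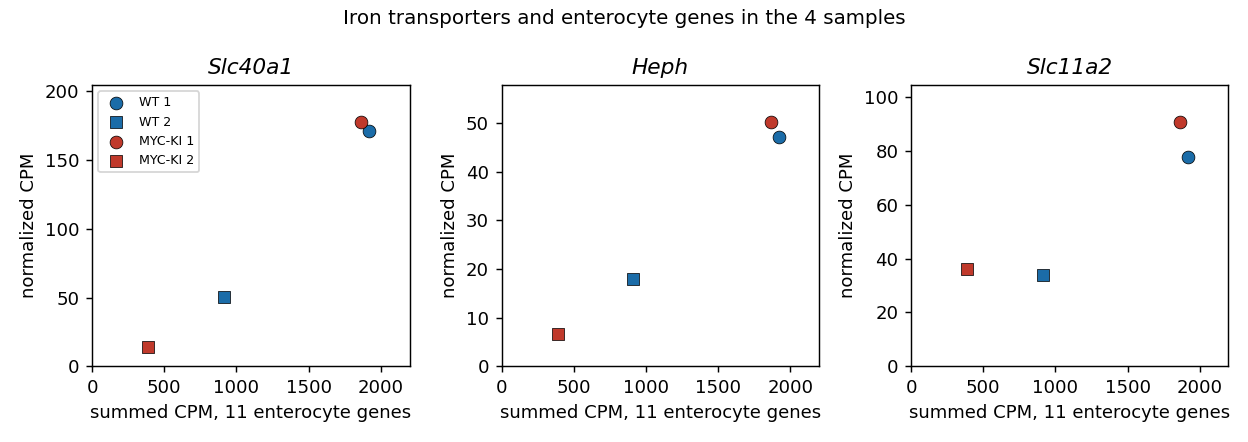
Normalised CPM of *Slc40a1*, *Heph* and *Slc11a2* (vertical axes) against the summed CPM of 11 enterocyte genes (horizontal axis), 1 point per sample. In each panel both replicate 1 samples lie at the upper right, at 1921 and 1866 summed CPM, and both replicate 2 samples at the lower left, whichever the genotype.

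The hepcidin-related gene *Hamp2* (chr7:30922372-30924681) showed the widest difference of the members tested. Its counts were 987 and 692, or 29.4 and 24.8 CPM, in WT and 1 and 4, or 0.0295 and 0.0895 CPM, in *Atp4b-cre; Myc OE* samples. Thus the transcript was plain in both WT samples and near the limit of detection in both transgenic ones. Summed over samples, 1679 counts stood against 5, a ratio of 429 after normalisation with a 95% exact interval of 184 to 1324 that covers counting error only. The log2 fold change was −8.67 (standard error 0.40, edgeR adjusted p = 0.00975), and the call was not made when either WT sample was left out (−8.56 and −8.81, adjusted p = 0.196 and 0.232). In this stretch the re-assignment moves transgenic counts by 1 row: the deposited *Hamp2* row holds 95 and 90 transgenic counts, which go to *Hand1*, and in the deposited order the log2 fold change was −3.44. Over the 60 rows around *Hamp2*, r between genotypes was 0.958 in the order used and at most 0.258 with any other shift of up to 5 rows.

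*Hamp* (chr7:30942368-30944032), which encodes hepcidin itself, was represented by 0 and 42 counts in the WT samples and by 3 and 1 in the *Atp4b-cre; Myc OE* samples. Nearly all its reads came from WT replicate 2, and the gene did not reach the count filter. That sample also held the most reads of liver genes: counts of albumin (*Alb*) were 183 and 12700 for WT and 52 and 562 for transgenic samples, and the 10 hepatocyte genes summed to 1023 and 1733 CPM in WT and 296 and 59.9 CPM in the transgenic samples, with none called (edgeR; 4 had an unadjusted p under 0.05, and DESeq2 called 3, all lower). Over all genes, 6024 of 17643 had an unadjusted edgeR p under 0.05. *Apoa1* alone made up 943 and 1008 CPM of the hepatocyte sums in WT and 261 and 23.7 CPM in the transgenic samples. The part of liver RNA in the *Hamp* reads was not tested. *Hamp2* was higher in replicate 1 in WT and had 1 and 4 counts in the transgenic samples, and the part of liver RNA in its reads was not tested either. Like the parietal genes it was high in both WT samples and low in both transgenic ones: *Atp4a*, the catalytic subunit of the proton pump, had 7684 and 7949 CPM in WT and 138 and 187 CPM in transgenic samples, and was 48.0-fold lower by mean CPM. The most abundant chief cell genes had the same pattern, *Pgc*, a pepsinogen, being 63.9-fold and *Chia1*, the acidic chitinase, 448-fold lower by mean CPM. Endothelial (6 of 6 tested), surface mucous (5 of 7) and fibroblast (3 of 7) genes were also called lower. The part of these cell types in the *Hamp2* difference was not tested.

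Reads of *Hamp* and *Hamp2* can be exchanged, because their transcripts are identical at 388 of 410 aligned bases (94.6%), with a longest identical run of 87 bases. The sum of both rows fell by 7.88 on the log2 scale (standard error 0.22, edgeR adjusted p = 0.00467), and by mean CPM went from 27.9 to 0.115, against 27.1 to 0.0595 for *Hamp2* alone. The division of reads between the rows was not tested.

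In RefSeq promoter windows of GRCm38.p6, from 250 bases before to 50 after each start, 7 members had a window, 9 windows in all. CACGTG, the E-box bound by c-Myc and its partner Max, was in none of the 9 windows of the members and in 7.15% of all windows, and nothing about c-Myc binding follows from a motif that is missing in a window of this length.

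**Figure D3:**
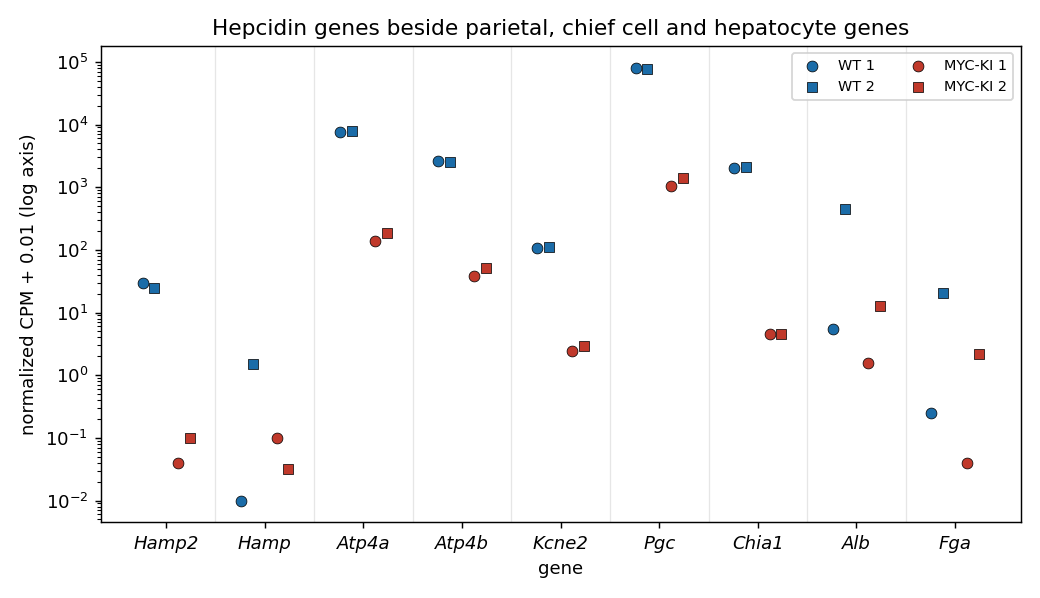
Normalised CPM plus 0.01 on a log axis for *Hamp2* and *Hamp*, for the parietal genes *Atp4a*, *Atp4b* and *Kcne2*, for the chief cell genes *Pgc* and *Chia1* and for the liver genes *Alb* and *Fga*, 1 point per sample. *Hamp2* and the parietal and chief cell genes separate by colour, with *Atp4a* at 7684 and 7949 CPM in WT and 138 and 187 CPM in MYC-KI, while *Hamp*, *Alb* and *Fga* are highest in WT replicate 2.

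The sensors of cytosolic iron showed little difference. *Ireb2* (chr9:54863789-54912530), the iron regulatory protein that is degraded when iron is plentiful, had 109 and 97.5 CPM in WT and 119 and 86.8 CPM in *Atp4b-cre; Myc OE* samples. The WT samples lay between the transgenic ones, and the log2 fold change was −0.01 (standard error 0.18, edgeR adjusted p = 0.982). *Aco1* (chr4:40143081-40198338), which is an aconitase when it holds an iron-sulfur cluster and binds RNA when it does not, had 129 and 127 CPM in WT and 124 and 124 CPM in the transgenic samples. It was the steadiest member, with a log2 fold change of −0.05 (standard error 0.07, edgeR adjusted p = 0.703). Neither value says anything of protein level or RNA binding, which are the points at which iron acts on both.

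Levels were set side by side per length, as mean normalised CPM per kilobase of exons of protein-coding transcripts. In WT the order was *Ftl1* (1157), *Fth1* (967), *Hamp2* (46.5), *Aco1* (33.4), *Slc40a1* (32.0), *Tfrc* (22.1), *Ireb2* (17.7), *Slc11a2* (8.90), *Heph* (5.44) and *Hamp* (1.84). Ferritin chains were thus far above the rest. Between neighbours in this order, the only pairs compared, the samples of *Aco1* and *Slc40a1*, of *Slc40a1* and *Tfrc*, of *Slc11a2* and *Heph*, and of *Heph* and *Hamp* overlapped. In *Atp4b-cre; Myc OE* samples *Ftl1* (950) and *Fth1* (614) were the highest, *Tfrc* (58.3) came next and *Hamp2* (0.102) last. There, between neighbours, the samples of *Aco1* and *Slc40a1*, of *Slc40a1* and *Ireb2*, of *Slc11a2* and *Heph*, and of *Hamp* and *Hamp2* overlapped. By mean, the order of the ferritin chains turned with the length used: per kilobase of 1 transcript of 929 bases, a length tried after the data were seen, *Fth1* was at 1685 in WT and 1070 in transgenic samples, above *Ftl1* at 1157 and 950. In transgenic replicate 2 it did not turn, with *Fth1* at 834 and *Ftl1* at 1013. *Slc40a1*, at 49.4 and 14.6 in the WT samples, spans much of the middle of the order. These are levels of RNA per length in the mixed tissue, not differences between genotypes.

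Other genes of iron handling were taken from 11 lists by role, with 126 symbols in all, of which 117 were in the table and 114 were tested. Of these, 4 rose and 8 fell, or 10.5% called against 10.7% of all genes, with a median log2 fold change of −0.11. The share called was thus near that of the background. DESeq2 called 7 higher and 19 lower, or 22.6% of the 115 with an adjusted p there, against 18.0% of all genes by that tool. The balance of directions turned in edgeR without scaling factors, with 12 higher and 3 lower.

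Among 17 plasma carriers, reductases and other importers tested, *Steap1*, of the STEAP family that includes metalloreductases, rose, and *Cybrd1* and *Slc22a17* fell, with a list median of −0.92. *Cybrd1*, the ferric reductase that supplies ferrous iron to DMT1 in the duodenum, had 459 and 557 CPM in WT and 151 and 156 CPM in *Atp4b-cre; Myc OE* samples, the lowest WT sample standing well above both transgenic ones. Its log2 fold change was −1.73 (standard error 0.13, edgeR adjusted p = 0.0155). *Steap1* had 7.39 and 5.66 CPM in WT and 20.5 and 20.5 CPM in the transgenic samples (log2 fold change 1.65, edgeR adjusted p = 0.0228). The lipocalin receptor gene *Slc22a17* was at −0.85 (edgeR adjusted p = 0.0433). *Trf*, which encodes transferrin, the ligand of the receptor that *Tfrc* encodes, had 47.1 and 202 CPM in WT and 16.2 and 23.1 CPM in the transgenic samples. It was not called (log2 fold change −2.66, edgeR adjusted p = 0.0894), it was named after its values were seen, and its high sample was the one with the most albumin reads.

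Of the 3 ferroxidases and partners of export tested, *Cp* and *App* fell. *Cp*, ceruloplasmin, the plasma counterpart of hephaestin, had 16.6 and 25.2 CPM in WT and 4.54 and 7.25 CPM in *Atp4b-cre; Myc OE* samples (log2 fold change −1.82, edgeR adjusted p = 0.0435). *App*, the amyloid precursor protein, which has been linked to ferroportin at the membrane, had 923 and 922 CPM in WT and 607 and 581 CPM in the transgenic samples (log2 fold change −0.64, edgeR adjusted p = 0.0286). Both were therefore lower in each transgenic sample than in each WT sample. Such a lack of overlap, in either direction, was found for 64.9% of all genes tested. Macrophage genes, whose cells recycle iron through ferroportin, moved in the same direction: 7 of 11 tested were called lower, *Lyz2* and *Csf1r* being the most abundant, and the 13 in the table summed to 430 and 444 CPM in WT and 154 and 150.5 CPM in the transgenic samples. The part of macrophages in the values of the iron genes was not tested.

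Of 23 genes that control hepcidin tested, *Fam132b* rose and *Furin*, *Neo1* and *Smad6* fell. *Furin*, the protease that cuts the hepcidin precursor and hemojuvelin, had 1444 and 1423 CPM in WT and 237 and 129 CPM in *Atp4b-cre; Myc OE* samples, a log2 fold change of −2.97 (standard error 0.33, edgeR adjusted p = 0.0213). *Fam132b*, which encodes erythroferrone, the hormone by which red cell precursors lower hepcidin, had 2.26 and 2.65 CPM in WT and 7.96 and 5.98 CPM in the transgenic samples (log2 fold change 1.502, edgeR adjusted p = 0.0431). So the abundant protease and the scarce hormone moved in opposite directions. *Neo1*, a partner of hemojuvelin, was at −0.80 and *Smad6*, an inhibitor of BMP signalling, at −0.61 (edgeR adjusted p = 0.0195 and 0.0395).

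**Figure D4:**
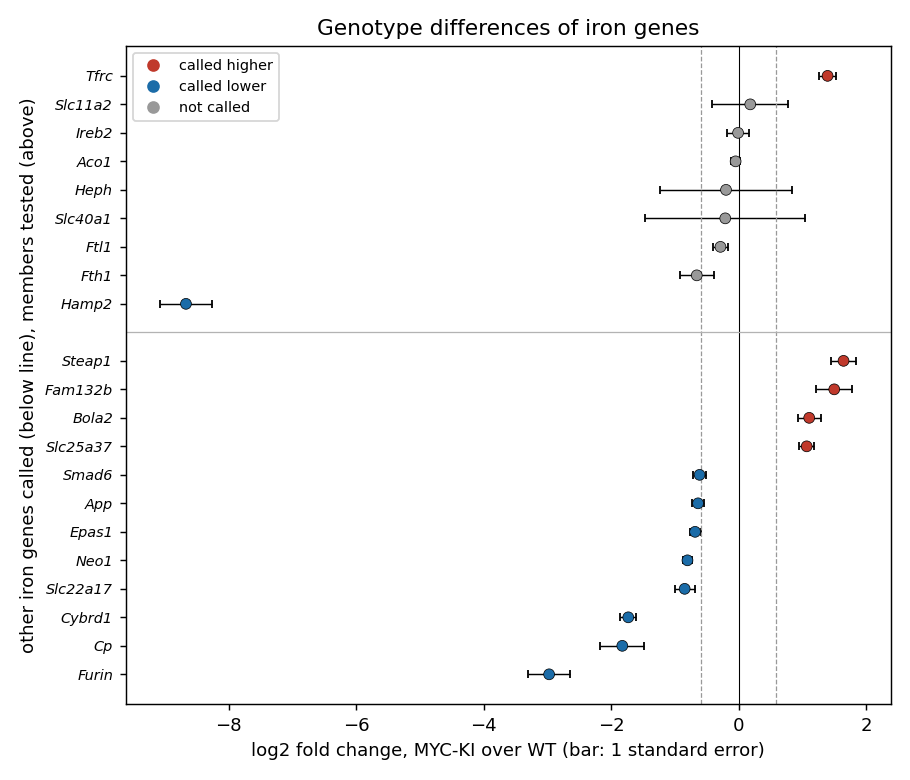
Log2 fold change of MYC-KI over WT with 1 standard error for the 9 members tested (above the line) and the 12 other iron genes called (below it), dashed lines marking 1.5-fold either way. *Tfrc* at 1.40 and *Hamp2* at −8.67 are the coloured members, the bars of *Slc40a1* and *Heph* are the longest, and *Furin* at −2.97 is the lowest of the other genes.

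In the mitochondrion, *Slc25a37*, mitoferrin 1, which carries iron across the inner membrane, was the 1 gene of 24 called, with 20.1 and 19.7 CPM in WT and 44.6 and 39.0 CPM in *Atp4b-cre; Myc OE* samples (log2 fold change 1.07, edgeR adjusted p = 0.0213). Among 11 genes of cytosolic iron-sulfur cluster assembly, *Bola2* rose, from 9.21 and 7.38 CPM to 17.4 and 18.4 CPM (log2 fold change 1.11, edgeR adjusted p = 0.0345). The medians of both lists were small, 0.12 and 0.19. Of 5 other transcripts known for an iron-responsive element, *Epas1*, encoding the hypoxia factor HIF-2α, fell from 201 and 205 CPM to 121 and 132 CPM (log2 fold change −0.68, edgeR adjusted p = 0.0255). The 7 endothelial genes, from cells known to be rich in *Epas1*, summed to 381 and 361 CPM in WT and 145 and 138 CPM in the transgenic samples, and their part in this difference was not tested. Of these 5, *Alas2* held a UTR hairpin of the searched form.

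In 5 lists edgeR called no gene. Of all 17643 genes tested, 6024 had an unadjusted edgeR p under 0.05, the background for the counts that follow. Heme synthesis had 0 of 9 called and 4 with an unadjusted p under 0.05, and DESeq2 called 1 of them lower. Heme transport and breakdown had 0 of 7 called and 2 with an unadjusted p under 0.05, and DESeq2 called none. Iron chaperones and ferritin turnover, the list with the ferritin receptor *Ncoa4*, had 0 of 6 called and 3 with an unadjusted p under 0.05, and DESeq2 called 1 higher and 2 lower. Degradation of iron regulatory protein had 0 of 5 called and 2 with an unadjusted p under 0.05, and ferroptosis 0 of 5 called and 1, with none called by DESeq2 in either. Calls also needed a change over 1.5-fold. *Slc48a1*, the most abundant gene of heme transport and breakdown, missed only that, at a log2 fold change of −0.43 (edgeR adjusted p = 0.0388). Missing either threshold does not show that the genes did not differ.

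**Figure D5:**
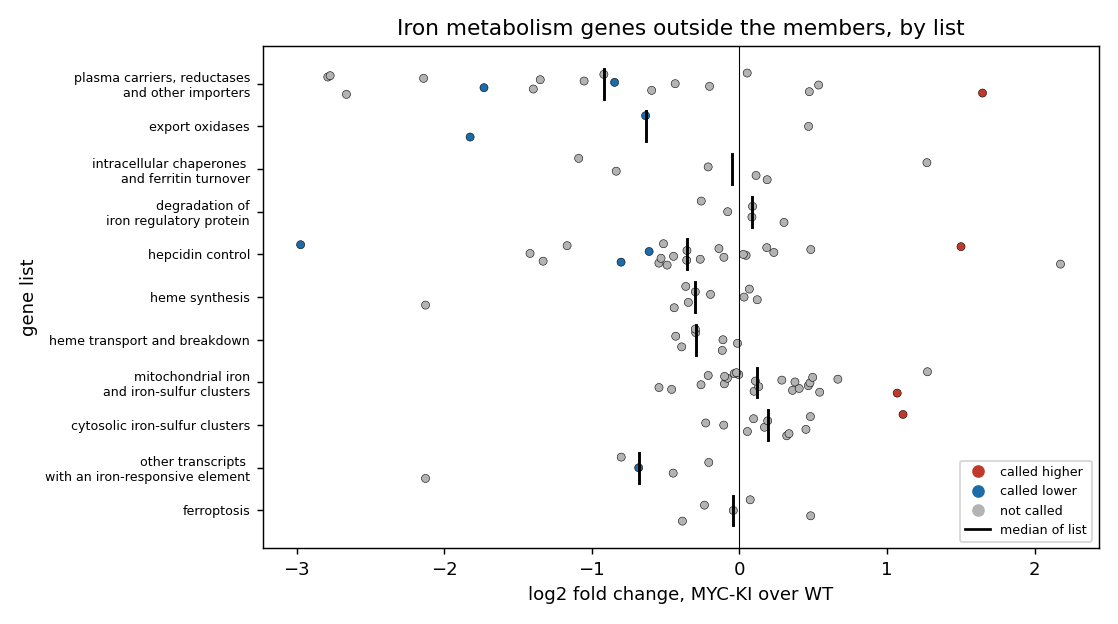
Log2 fold change of MYC-KI over WT for the tested genes of the 11 iron lists outside the members, 1 point per gene, with the list median as a bar and called genes in colour. Medians run from −0.92 for carriers, reductases and importers to 0.19 for cytosolic iron-sulfur clusters, and most points are grey.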

How the data were processed

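Gastric RNA was sequenced in 2 WT and 2 *Atp4b-cre; Myc OE* samples, and the authors deposited 1 table of raw read counts, not normalized, with 1 column per sample. The submitters' processing notes name HISAT2 and mm10; the counting tool, annotation and strand setting are not given in the sources used here. Columns were mapped to samples by name. The transgenic counts were re-assigned to names sorted by character code, for all comparisons. The members and lists were chosen with earlier results of these data known.

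Genes were tested over the whole table with edgeR 4.0.16 in R 4.3.3 (TMM, filterByExpr, glmQLFit and glmQLFTest, two-sided, Benjamini-Hochberg), called at an adjusted p under 0.05 with a log2 fold change beyond 0.585 either way, as in the study, whose tool was DESeq2. Standard errors are the absolute log2 fold change over the square root of F. Replicates differed by more than counting noise (chi-square per degree of freedom 28.9 for WT and 97.9 for transgenic samples) and were kept apart. With 30260305 to 41463647 counts in each library, 0 observed counts leave room for 3, covering counting error only.

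Alternatives were the deposited order, DESeq2 1.42.0, its size factors, library size, no filter, at least 10 counts, the replicate block, other fold thresholds, summed near-identical rows and leaving out each sample. On simulated counts of 17643 genes with 200 changed by a log2 fold of 2, edgeR recovered 162 (81.0%) and called 13 others, and DESeq2 164 (82.0%) and 21 others. Every simulated gene had the same dispersion, the common one of these data, and only genes above a minimum level were changed. These shares therefore do not give the power for the real genes, whose spread varied. All 10 members, iron genes called (at most 4 a direction in a list) and the 2 most abundant markers of a list are named; others were chosen after their values were seen. Hairpins and exon lengths came from GENCODE M21 (GRCm38), promoters from RefSeq (GRCm38.p6). Marker sums are normalised CPM. One promoter sequence is not reported here.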

Additional observations from a re-analysis of the deposited data

How the results depend on the processing

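With 2 samples per genotype the spread between samples, beyond counting error at this depth, limits the calls. In the deposited row order 0 members were higher and 9 lower, 30 and 71 other iron genes and 9422 and 9158 of all genes were called higher and lower, and log2 fold changes were −18.70 for *Fth1*, −5.98 for *Ftl1*, −6.64 for *Tfrc* (reversed), −8.12 for *Slc40a1*, −6.24 for *Slc11a2* (reversed), −1.42 for *Ireb2*, −7.05 for *Aco1* and −5.66 for *Heph*, values that rest on the names as they stand beside the transgenic counts. DESeq2 called 2 members lower, with *Fth1* at −0.66 as the added one, 7 other iron genes higher and 19 lower, and 1502 and 1730 of all genes. Without scaling factors the median of all genes moved from 0.01 to 0.23, 12 other iron genes were higher and 3 lower, 2272 of all genes were higher, and *Slc40a1* (0.014), *Ireb2* (0.22), *Aco1* (0.18) and *Heph* (0.027) turned positive. With no filter 16 other iron genes were lower and *Ireb2* was at 0.0054. At least 10 counts in every sample left *Hamp2* untested and 0 members lower. Without a fold threshold 13 other iron genes were lower, and above a log2 fold change of 1 they were 3, with 464 of all genes higher.

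Labels do not say what shared replicate numbers mean, and the differences between replicates correlated at r = 0.063 between genotypes over 17643 genes, so the numbers were not taken to pair the samples. With the replicate block 0 other iron genes were higher and 1 lower, 27 of all genes were higher and 87 lower, and *Tfrc* and *Hamp2* were still called (edgeR adjusted p = 0.0490 and 0.0462). In that fit the log2 fold changes were −0.87 for *Slc40a1* (standard error 0.54), −0.65 for *Heph* (0.43) and 0.16 for *Slc11a2* (0.095). These genes were not called.

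Leaving out 1 sample leaves a genotype with 1, assumed to vary like the other. Members called higher then numbered 0 to 1 and lower 0 to 2, other iron genes 0 to 5 and 0 to 16, and all genes 0 to 1064 and 0 to 1406, the zeros being those without either WT sample, where edgeR gave 3554 and 3410 genes an unadjusted p under 0.05. The log2 fold changes spanned −1.01 to −0.37 for *Fth1*, −0.38 to −0.19 for *Ftl1*, 1.28 to 1.52 for *Tfrc*, −2.97 to 0.92 for *Slc40a1*, −0.63 to 0.90 for *Slc11a2*, −9.66 to −8.19 for *Hamp2*, −0.25 to 0.20 for *Ireb2*, −0.059 to −0.037 for *Aco1* and −2.28 to 0.66 for *Heph*. Where no cause is given, the cause was not tested.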
